A study of Mus musculus with 15 samples.

Results

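The genes described here are 45 that build and run the DNA replication machinery or supply it with deoxynucleotides. They were chosen by name, from known function, and matched through their mouse Ensembl identifiers. All 45 were found among the 55421 gene identifiers of the deposited table, and all 45 were among the 12800 genes with at least 1 TPM (a length-corrected share of a library's transcripts) in at least 3 of the 15 libraries, which were the genes tested. The study was about phosphorylation of STAT3 downstream of the T cell receptor in mouse CD4 T cells. Naive CD4 T cells sorted from spleen and lymph nodes were activated with plate-bound antibodies against CD3 (2 µg/ml) and CD28 (1 µg/ml), cultured under TH17 or Treg conditions, and harvested on day 5 for polyadenylated RNA sequencing. There were 5 groups of 3 libraries. Wild-type TH17 cultures received TGFβ at 2.5 ng/ml with IL-1β, IL-6 and IL-23 at 10 ng/ml each, and either the solvent DMSO (DMSO TH17) or the compound that the labels call Srci1 (Srci1 TH17). TH17 cultures from STAT3-fl/fl CD4-cre mice, in which a Cre recombinase driven by Cd4 cuts floxed Stat3 alleles in T cells, received DMSO (knockout TH17). Wild-type Treg cultures received TGFβ, at 0.5 ng/ml unless the study set another amount, and IL-2 at 200 U/ml, with DMSO (DMSO Treg) or Srci1 (Srci1 Treg). All cultures held antibodies that neutralise IFNγ and IL-4. The compound went into the wells 24 h after the cells, and its concentration is not stated in the labels. The knockout came without a Srci1-treated or a Treg group.

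Replication starts from origins that are licensed in G1 phase: the origin recognition complex, with Cdc6 and Cdt1, loads the ring-shaped Mcm helicase onto DNA. Cdc45 and the Gins complex then turn the ring into a moving helicase, primase and the polymerases copy the strands, the Rpa trimer covers single-stranded DNA, and the sliding clamp Pcna, loaded by the Rfc complex, holds the polymerases in place. Ribonucleotide reductase, thymidylate synthase and thymidine kinase supply the building blocks. Most of these genes are transcribed at the G1/S boundary under E2F transcription factors, which cyclin E and Cdc25a help to release, and activated T cells are known for switching the whole set on before they divide.

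The unit of the deposited values, TPM, is corrected for transcript length and sums to the same total in each library, so levels of different genes can be compared, but sequencing depth is unknown and no count-based precision can be given. The labels do not say that the 3 libraries of a group came from separate mice, so the p-values measure the spread between libraries, which may be technical. Stat3 read 33.5, 38.4 and 30.7 TPM in knockout TH17 against 129.7, 133 and 99.8 TPM in DMSO TH17, as labelled. The TH17 cytokine gene Il17a was highest in DMSO TH17 (1338 TPM on average) and Foxp3, the defining factor of Treg cells, was at 129.7 TPM in DMSO Treg against 11.7 TPM in DMSO TH17. Foxp3 was also at 204 TPM in Srci1 TH17 and 205 TPM in knockout TH17, while Ikzf2, another Treg marker, stayed between 0.343 and 5.92 TPM in the 5 groups. DMSO TH17 replicate 3 was the lowest of its group for 34 of the 45 genes, and counts are therefore also given without it. Ribosomal protein genes held 28.4% of all TPM in DMSO TH17, 28.7% in knockout TH17, 25.0% in DMSO Treg, 22.1% in Srci1 TH17 and 20.9% in Srci1 Treg. TPM shares a fixed total, and the median of all tested genes shifted as well, for reasons that were not tested. That median is given beside each median of the replication genes.

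All 45 genes were well expressed on day 5, with group means from 5.2 TPM (Gins3 in DMSO TH17) to 615 TPM (Pcna in Srci1 Treg). Their summed level was 2715 ± 205 TPM (SD, n = 3) in DMSO TH17, 4043 ± 106 in knockout TH17, 4245 ± 99.5 in Srci1 TH17, 4401 ± 20.9 in DMSO Treg and 5734 ± 181 in Srci1 Treg. The order was nearly the same gene by gene: 42 of the 45 had their lowest mean in DMSO TH17 and 40 had their highest mean in Srci1 Treg. For 44 of them, every Srci1 Treg library lay above every DMSO TH17 library. The genes lowest in the knockout instead were Orc1, Mcm2 and Rfc3, and those not highest in Srci1 Treg were Gins1, Gins2, Rfc3, Prim2 and E2f1. In bulk libraries, fewer cells in S phase and less of these RNAs per cell cannot be told apart, and the same holds for each difference below.

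**Figure D1:**
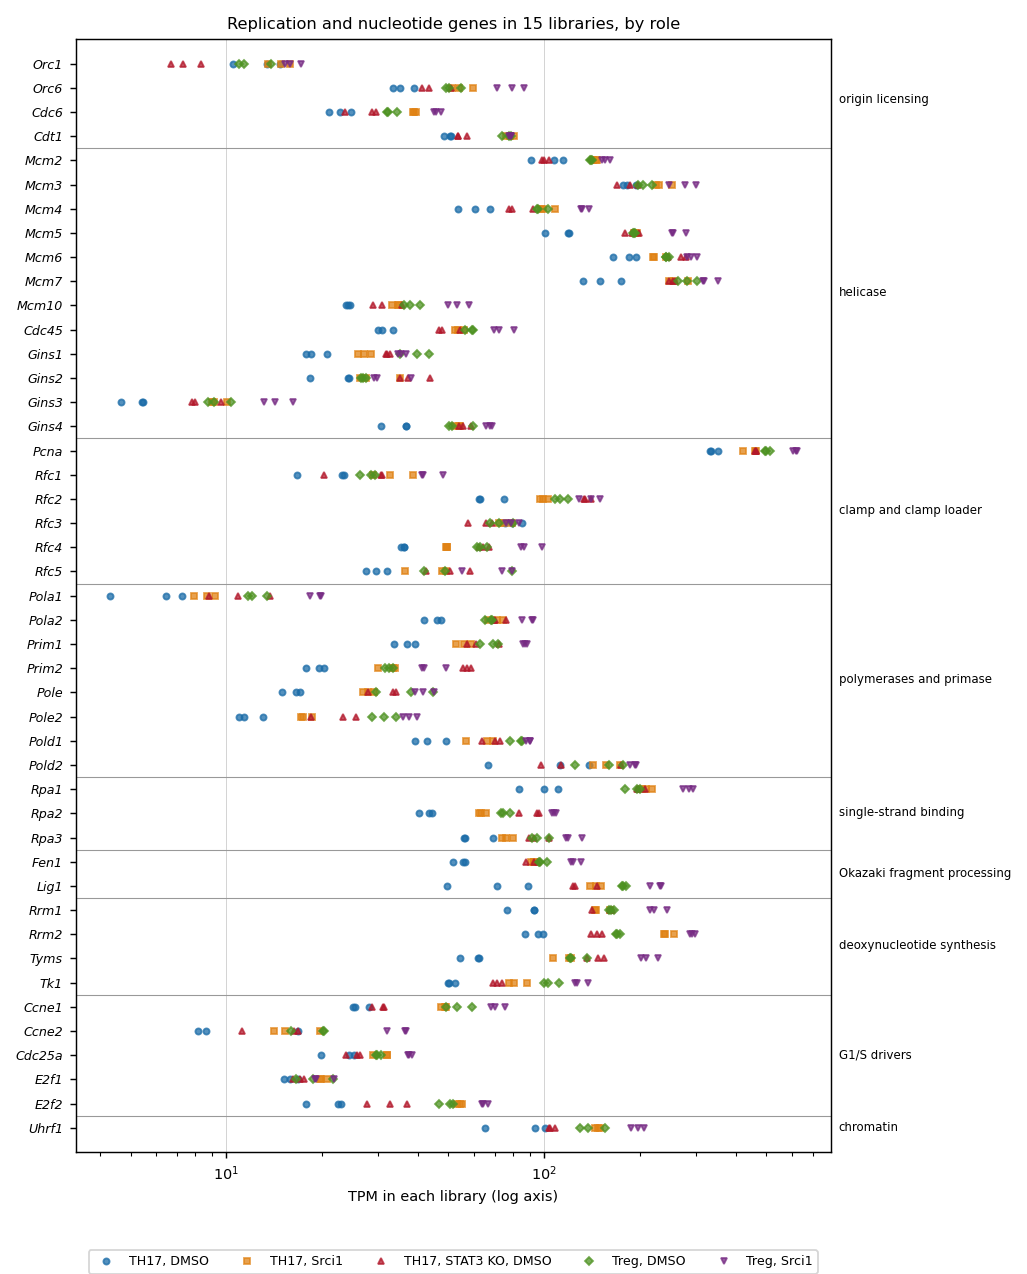
TPM of each of the 45 genes (vertical axis, grouped by role) in every one of the 15 libraries, on a log axis, with 1 symbol per library and 1 colour and shape per group. Most genes run from DMSO TH17 at the left to Srci1 Treg at the right, while Orc1 and Rfc3 have their lowest libraries in knockout TH17.

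Promoters were read because these genes moved together. RefSeq windows of 250 bases before and 50 bases after the annotated start (GRCm38.p6) were matched by symbol for 37 of the 45 genes, the others being Rfc2, Ccne2, Prim2, Gins2, Gins4, Pole, Mcm4 and Gins1. Each window was searched on both strands for the E2F motifs TTTCCCGC and TTTGGCGC, which read GCGGGAAA and GCGCCAAA on the other strand, and for CCAAT, which reads ATTGG on the other strand. An E2F motif lay in the window of 13 of the 37 genes (35.1%), against 486 of all 27025 genes with a window (1.8%) and 3.66% of the tested genes. CCAAT lay in the windows of 24 of the 37 (64.9%), against 41.1% of all genes and 43.4% of the tested genes. Of 16 mitosis genes with a window, which are counted further below, 14 held CCAAT (87.5%) and 0 an E2F motif. Of 24 further replication genes, 10 held CCAAT (41.7%) and 5 an E2F motif (20.8%). The part of either motif in the shared movement was not tested. Both kinds of motif were found for 9 of the 37 genes, and 1 pair of matches overlapped, a CCAAT and an ATTGG in Uhrf1. A match is a description of the letters, not evidence of a bound site. The 250 bases before the start of 6 genes are shown 5′ to 3′ on the gene's strand, with matches in capitals: 4 that hold an E2F motif and CCAAT, from the helicase (Mcm5, Mcm6), the primase-bearing polymerase (Pola1) and the G1/S drivers (Cdc25a), and, for contrast, the deoxynucleotide synthesis genes Rrm1, with CCAAT alone, and Tyms, with neither.
Mcm6 (chr1:128359706-128359955, minus strand): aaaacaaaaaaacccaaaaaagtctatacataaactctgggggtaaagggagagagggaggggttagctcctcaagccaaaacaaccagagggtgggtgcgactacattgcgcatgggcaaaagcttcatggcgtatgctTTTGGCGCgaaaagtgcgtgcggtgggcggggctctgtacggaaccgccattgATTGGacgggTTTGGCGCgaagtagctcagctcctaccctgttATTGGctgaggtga
Mcm5 (chr8:75109259-75109508, plus strand): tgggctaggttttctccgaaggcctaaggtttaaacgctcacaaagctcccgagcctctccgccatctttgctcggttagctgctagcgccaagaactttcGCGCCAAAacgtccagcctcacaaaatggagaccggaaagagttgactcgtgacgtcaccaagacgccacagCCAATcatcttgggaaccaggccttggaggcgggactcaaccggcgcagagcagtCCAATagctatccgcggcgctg
Pola1 (chrX:93632156-93632405, minus strand): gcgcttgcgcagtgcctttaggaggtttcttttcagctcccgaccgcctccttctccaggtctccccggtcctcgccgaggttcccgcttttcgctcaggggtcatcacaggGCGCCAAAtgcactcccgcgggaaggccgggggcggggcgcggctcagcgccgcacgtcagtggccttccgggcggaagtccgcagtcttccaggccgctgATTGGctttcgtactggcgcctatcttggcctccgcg
Cdc25a (chr9:109875329-109875578, plus strand): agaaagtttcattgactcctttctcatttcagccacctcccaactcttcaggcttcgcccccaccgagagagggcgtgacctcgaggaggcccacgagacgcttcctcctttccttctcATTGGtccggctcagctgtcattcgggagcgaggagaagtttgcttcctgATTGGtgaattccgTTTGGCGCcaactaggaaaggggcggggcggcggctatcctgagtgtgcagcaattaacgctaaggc
Rrm1 (chr7:102441445-102441694, plus strand): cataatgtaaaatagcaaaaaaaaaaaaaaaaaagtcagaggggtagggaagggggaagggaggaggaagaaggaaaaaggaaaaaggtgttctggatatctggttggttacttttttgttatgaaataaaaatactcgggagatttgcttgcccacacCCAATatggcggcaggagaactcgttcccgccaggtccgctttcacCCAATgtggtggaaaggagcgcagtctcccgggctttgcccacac
Tyms (chr5:30073626-30073875, minus strand): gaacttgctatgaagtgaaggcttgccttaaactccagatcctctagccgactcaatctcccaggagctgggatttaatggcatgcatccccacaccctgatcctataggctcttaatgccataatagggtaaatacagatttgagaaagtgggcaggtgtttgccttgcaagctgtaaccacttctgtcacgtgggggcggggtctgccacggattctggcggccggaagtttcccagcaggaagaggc
In Mcm6 the E2F motifs started 110 and 47 bases before the start site and in Cdc25a 67 bases before it. The promoters were printed after the values of these genes had been seen.

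Among the origin licensing genes, Cdc6, the ATPase that helps to load the helicase, was at 24.8, 22.8 and 21 TPM in DMSO TH17, 39.5, 38.9 and 38.8 in Srci1 TH17, 28.8, 29.5 and 23.6 in knockout TH17, 32.3, 32.0 and 34.4 in DMSO Treg and 44.9, 45.7 and 47.2 in Srci1 Treg. The 5 groups formed almost separate bands, with only DMSO TH17 and knockout TH17 overlapping. Cdt1, its partner in loading, was at 50.5, 51.1 and 48.5 TPM in DMSO TH17, 75.8, 80.2 and 78.3 in Srci1 TH17, 53.5, 57.2 and 53.5 in knockout TH17, 78.5, 77.6 and 73.6 in DMSO Treg and 78.9, 77.5 and 78.5 in Srci1 Treg. Its libraries fell into a low set, DMSO TH17 and knockout TH17, and a high set of the other 3 groups, whose ranges overlapped. Orc1, the largest subunit of the origin recognition complex and the one that is known to come and go with the cell cycle, was at 13.5, 14.7 and 10.5 TPM in DMSO TH17, 15.8, 14.9 and 13.5 in Srci1 TH17, 7.32, 8.36 and 6.69 in knockout TH17, 11.4, 10.9 and 13.9 in DMSO Treg and 15.8, 17.1 and 15.3 in Srci1 Treg. Here the knockout libraries stood alone below all others, and the other 4 groups overlapped in a chain. Orc6, a small subunit of the same complex, was lowest in DMSO TH17 (mean 35.9 TPM) and highest in Srci1 Treg (79.0 TPM), so the subunits of 1 complex did not keep the same order of groups.

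In the helicase, Mcm2 was at 108, 115 and 90.7 TPM in DMSO TH17, 142, 145 and 147 in Srci1 TH17, 99.7, 104 and 98.7 in knockout TH17, 141, 141 and 139 in DMSO Treg and 156, 161 and 152 in Srci1 Treg. Its knockout and DMSO TH17 libraries overlapped, and all other groups lay above them. Mcm5, on the opposite side of the ring's gate from Mcm2, was at 119.5, 119 and 101 TPM in DMSO TH17, 193, 191 and 196 in Srci1 TH17, 189, 198 and 180.0 in knockout TH17, 192, 193 and 190.3 in DMSO Treg and 254, 279 and 253 in Srci1 Treg. Unlike Mcm2, it separated DMSO TH17 from every other group, while knockout TH17, Srci1 TH17 and DMSO Treg shared 1 range. Mcm10, which helps to start the loaded helicase, was at 23.8, 24.6 and 24.2 TPM in DMSO TH17, 35.0, 34.8 and 33.1 in Srci1 TH17, 35.8, 30.8 and 28.9 in knockout TH17, 40.7, 37.9 and 36.3 in DMSO Treg and 53.3, 58.1 and 49.8 in Srci1 Treg. Cdc45, which rides with the ring as part of the active helicase, was at 33.5, 30.8 and 29.9 TPM in DMSO TH17, 56.2, 52.3 and 53.5 in Srci1 TH17, 54.2, 46.8 and 47.6 in knockout TH17, 56.4, 59.5 and 59.5 in DMSO Treg and 72.0, 80.3 and 69.5 in Srci1 Treg. Both had DMSO TH17 alone at the bottom and Srci1 Treg alone at the top. Gins2, a subunit of the 4-part Gins complex, was at 24.1, 24.4 and 18.4 TPM in DMSO TH17, 27.5, 26.4 and 35.2 in Srci1 TH17, 35.3, 37.2 and 43.8 in knockout TH17, 26.4, 27.0 and 27.5 in DMSO Treg and 29.9, 38.2 and 29.2 in Srci1 Treg. Its highest library was a knockout one, and the Srci1 TH17 libraries were spread from 26.4 to 35.2 TPM. In the annotation, 67.3% of the exonic bases of Gins2 also lie in exons of Gse1 on the opposite strand, which reached 18.8 TPM. Without a stated strand setting, reads of the pair cannot be told apart.

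Pcna, the sliding clamp, had the highest level of the 45 genes in every group, at 353, 335 and 332 TPM in DMSO TH17, 465, 424 and 460.4 in Srci1 TH17, 464, 464 and 461 in knockout TH17, 499, 497 and 514 in DMSO Treg and 618, 623 and 605 in Srci1 Treg. Knockout and Srci1 TH17 shared 1 range, and the other groups were separate. Of the clamp loader, Rfc2 was at 75, 63.0 and 62.2 TPM in DMSO TH17, 96.9, 103 and 99.1 in Srci1 TH17, 140.5, 135 and 133 in knockout TH17, 119, 112 and 108 in DMSO Treg and 129, 149 and 140.0 in Srci1 Treg. The knockout libraries of Rfc2 were above those of Srci1 TH17 and of DMSO Treg. Rfc3 was at 79.2, 85.4 and 75.4 TPM in DMSO TH17, 74.7, 79.1 and 72.0 in Srci1 TH17, 65.8, 68.5 and 57.4 in knockout TH17, 72.1, 67.4 and 79.8 in DMSO Treg and 83.4, 78.7 and 76.0 in Srci1 Treg. All groups of Rfc3 overlapped with a neighbour, and it was the only 1 of the 45 genes with its highest mean in DMSO TH17.

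The catalytic subunit of the primase-bearing polymerase, Pola1, was at 7.26, 6.45 and 4.31 TPM in DMSO TH17, 8.69, 7.91 and 9.25 in Srci1 TH17, 8.82, 13.7 and 10.9 in knockout TH17, 12.1, 11.7 and 13.4 in DMSO Treg and 19.9, 18.3 and 19.7 in Srci1 Treg. It was among the scarcest of the 45 genes, and DMSO TH17 was again alone at the bottom. Prim1, the catalytic primase subunit, was at 39.3, 36.9 and 33.8 TPM in DMSO TH17, 59.0, 52.8 and 56.0 in Srci1 TH17, 57.2, 72.2 and 60.9 in knockout TH17, 68.8, 62.8 and 71.6 in DMSO Treg and 85.9, 88.3 and 87.1 in Srci1 Treg. Prim2, the regulatory primase subunit (GENCODE M21, GRCm38, chr1:33453810-33669795, minus strand), was at 20.3, 19.5 and 17.9 TPM in DMSO TH17, 33.5, 30.0 and 34.0 in Srci1 TH17, 58.9, 57.4 and 55.8 in knockout TH17, 32.6, 31.5 and 33.5 in DMSO Treg and 41.9, 49.1 and 41.4 in Srci1 Treg. The knockout libraries of Prim2 stood above all 12 others, which those of Prim1 did not. The catalytic subunit of the leading-strand polymerase, Pole, was at 16.6, 17.1 and 15 TPM in DMSO TH17, 29.2, 27.0 and 27.9 in Srci1 TH17, 33.5, 34.3 and 28.0 in knockout TH17, 44.7, 38.1 and 29.6 in DMSO Treg and 41.6, 39.1 and 44.9 in Srci1 Treg. Its DMSO Treg libraries were wide apart and overlapped knockout TH17 and Srci1 Treg. Pole2, its accessory subunit, was at 13.1, 11.0 and 11.3 TPM in DMSO TH17, 18.7, 17.2 and 17.4 in Srci1 TH17, 23.3, 25.5 and 18.4 in knockout TH17, 28.7, 34.2 and 31.3 in DMSO Treg and 37.7, 39.7 and 35.9 in Srci1 Treg. Both Treg groups of Pole2 lay above all TH17 libraries. Pold2, a subunit of the lagging-strand polymerase, had no call in any of the 6 comparisons, with 112, 139 and 66.8 TPM in DMSO TH17 and 113, 97.9 and 174 TPM in knockout TH17. Without DMSO TH17 replicate 2 it was called higher with Srci1 in TH17 (log2 change 0.85, adjusted p = 0.0145) and in Treg than in TH17 (0.81, adjusted p = 0.0166), and it was called in the former at a filter of 5 TPM and in the latter without DMSO Treg replicate 3.

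Of the single-strand binding trimer, the large subunit Rpa1 was at 110.3, 100.3 and 83.2 TPM in DMSO TH17, 219, 204 and 209 in Srci1 TH17, 197, 208 and 196 in knockout TH17, 196, 179.8 and 201 in DMSO Treg and 273, 285 and 294 in Srci1 Treg. DMSO TH17 lay far below the other groups, and Srci1 Treg above them. Rpa2, the middle subunit, was at 44.5, 43.5 and 40.5 TPM in DMSO TH17, 62.2, 65.5 and 63.4 in Srci1 TH17, 94.9, 96.5 and 83.3 in knockout TH17, 73.0, 78.3 and 74.0 in DMSO Treg and 106, 109 and 107 in Srci1 Treg. All 5 groups of Rpa2 were separate, in the order DMSO TH17, Srci1 TH17, DMSO Treg, knockout TH17 and Srci1 Treg. Fen1, the nuclease that trims the flaps of Okazaki fragments, was at 55.5, 56.2 and 51.8 TPM in DMSO TH17, 93.1, 91.2 and 92.8 in Srci1 TH17, 95.4, 93.0 and 87.5 in knockout TH17, 96.8, 102 and 96.6 in DMSO Treg and 121, 131 and 123 in Srci1 Treg. Lig1, the ligase that seals them, was at 89.2, 71.0 and 49.6 TPM in DMSO TH17, 151, 146 and 139 in Srci1 TH17, 125, 147 and 123 in knockout TH17, 177, 180.4 and 176 in DMSO Treg and 233, 232 and 215 in Srci1 Treg. In both genes knockout and Srci1 TH17 overlapped between DMSO TH17 below and DMSO Treg above. DMSO TH17 replicate 3 was well below its group for Lig1.

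Rrm1, the large subunit of ribonucleotide reductase, was at 93.1, 76.3 and 93.0 TPM in DMSO TH17, 162, 145 and 145 in Srci1 TH17, 163, 161 and 142 in knockout TH17, 165, 159.7 and 162 in DMSO Treg and 221, 243 and 215 in Srci1 Treg. Rrm2, the small subunit, whose level is known to follow S phase (GENCODE M21, GRCm38, chr12:24708241-24714146, plus strand), was at 99.1, 95.6 and 87.1 TPM in DMSO TH17, 256, 240.2 and 238 in Srci1 TH17, 146, 152 and 140.0 in knockout TH17, 174, 169.5 and 169 in DMSO Treg and 298, 287 and 292 in Srci1 Treg. All 5 groups of Rrm2 were separate and Srci1 TH17 ranked above DMSO Treg, whereas Rrm1 put Srci1 TH17, knockout TH17 and DMSO Treg in 1 range. Tyms, the thymidylate synthase, was at 62.0, 62.4 and 54.3 TPM in DMSO TH17, 119.7, 122 and 107 in Srci1 TH17, 155, 136 and 148 in knockout TH17, 120.3, 137 and 122 in DMSO Treg and 201, 228 and 209.8 in Srci1 Treg. Its knockout libraries were above those of Srci1 TH17. Tk1, the thymidine kinase of the salvage route, was at 50.2, 52.5 and 49.7 TPM in DMSO TH17, 77.6, 88.6 and 80.4 in Srci1 TH17, 71.2, 73.5 and 69.2 in knockout TH17, 99.7, 111 and 103 in DMSO Treg and 127, 137 and 125 in Srci1 Treg. Tk1 also separated all 5 groups, with knockout TH17 below Srci1 TH17.

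Among the G1/S drivers, Ccne1, cyclin E1, was at 25.4, 25.1 and 28.2 TPM in DMSO TH17, 48.7, 49.1 and 47.3 in Srci1 TH17, 31.4, 31.0 and 28.8 in knockout TH17, 59.3, 53.1 and 49.2 in DMSO Treg and 67.9, 75.3 and 70.2 in Srci1 Treg. Its groups were all separate, with the knockout just above DMSO TH17. Ccne2, cyclin E2, was at 16.8, 8.15 and 8.66 TPM in DMSO TH17, 19.7, 14.2 and 15.3 in Srci1 TH17, 11.2, 16.8 and 16.3 in knockout TH17, 16.0, 20.1 and 20.3 in DMSO Treg and 36.6, 32.1 and 36.7 in Srci1 Treg. Only its Srci1 Treg libraries stood clear, and DMSO TH17 replicate 1 was well above the other 2 libraries of its group. Cdc25a, the phosphatase that activates Cdk2, was at 25.2, 24.3 and 19.9 TPM in DMSO TH17, 32.1, 31.9 and 28.9 in Srci1 TH17, 26.3, 25.9 and 23.8 in knockout TH17, 29.8, 29.5 and 30.7 in DMSO Treg and 38.3, 37.4 and 37.6 in Srci1 Treg. E2f1 was at 15.9, 16.8 and 15.2 TPM in DMSO TH17, 19.9, 19.7 and 20.7 in Srci1 TH17, 17.6, 17.0 and 16.2 in knockout TH17, 21.7, 16.6 and 18.8 in DMSO Treg and 19.0, 19.1 and 21.8 in Srci1 Treg. It had the narrowest range of group means among these drivers, and all its groups overlapped with a neighbour. E2f2 (GENCODE M21, GRCm38, chr4:136172394-136196057, plus strand) was at 22.4, 23.0 and 17.8 TPM in DMSO TH17, 54.3, 55.2 and 53.1 in Srci1 TH17, 36.9, 32.7 and 27.7 in knockout TH17, 46.8, 50.4 and 51.6 in DMSO Treg and 63.6, 66.6 and 64.1 in Srci1 Treg. Its 5 groups were separate in the same order as those of Rrm2. Uhrf1, which recruits the maintenance DNA methyltransferase to newly copied DNA, was at 101, 93.8 and 65.1 TPM in DMSO TH17, 144, 149 and 148 in Srci1 TH17, 104, 108 and 104 in knockout TH17, 129.9, 155 and 138 in DMSO Treg and 206, 198 and 187 in Srci1 Treg. Knockout TH17 lay between DMSO TH17 below and the other groups above.

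Under Srci1, TH17 cultures held more RNA of nearly the whole replication set. At an adjusted p under 0.05 (limma on log2(TPM + 1), Benjamini-Hochberg over 12800 genes), 41 of the 45 genes rose and 0 fell, where 33.8% of all tested genes rose and 7.08% fell. The median log2 change was 0.61, against 0.21 over all tested genes. All 12 helicase genes rose, as did all 4 deoxynucleotide synthesis genes, all 3 Rpa genes, Fen1, Lig1 and Uhrf1, 7 of 8 polymerase and primase genes, 5 of 6 clamp and clamp loader genes, 3 of 4 licensing genes and 4 of 5 G1/S drivers. The libraries of the groups did not overlap for 42 of the genes, against 48.9% of all tested genes (39.6% higher and 9.29% lower). Rrm2 rose 2.61-fold (log2 change 1.37 ± 0.06, adjusted p = 1.57e-09, SE after ±), E2f2 2.57-fold (log2 change 1.33 ± 0.11, adjusted p = 6.38e-07) and Rpa1 2.15-fold (log2 change 1.11 ± 0.08, adjusted p = 4.31e-07). Lig1 was the remaining gene that at least doubled (2.07-fold, log2 change 1.08 ± 0.15, adjusted p = 8.38e-05). Tyms rose 1.95-fold, Ccne1 1.84-fold, Pole 1.73-fold, Rrm1 1.72-fold, Cdc45 1.72-fold, Cdc6 1.71-fold, Uhrf1 1.70-fold, Mcm5 1.71-fold and Fen1 1.70-fold. These middle-sized increases came from licensing, the helicase, the polymerases, Okazaki fragment processing, deoxynucleotide synthesis, G1/S control and chromatin. Smaller increases were those of Tk1 at 1.62-fold, Cdt1 at 1.56-fold, Prim1 at 1.52-fold, Rpa2 at 1.49-fold, Pola1 at 1.43-fold, Mcm10 at 1.42-fold, Mcm2 at 1.39-fold, Cdc25a at 1.34-fold, Gins2 at 1.33-fold, Pcna at 1.32-fold and E2f1 at 1.26-fold. The genes without a call were Orc1 (log2 change 0.19, 95% interval -0.09 to 0.47), Rfc3 (-0.09, -0.26 to 0.09), Pold2 (0.62, 0.11 to 1.14) and Ccne2 (0.57, 0.08 to 1.05).

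The median of all tested genes was also above 0 in this comparison (log2 change 0.21). When TPM was rescaled so that the median gene did not move (median-of-ratios scaling), 28 of the 45 genes rose and 1, Rfc3, fell (log2 change -0.35, adjusted p = 0.00400), with 16.6% of all tested genes higher and 16.5% lower. The median of the 45 was then 0.35, against -0.01 for all genes. The 13 genes that lost their call were Mcm3, Mcm6, Mcm10, Gins1, Gins2, Pcna, Rfc1, Rfc4, Rfc5, Pola1, Rpa3, Cdc25a and E2f1. Of the clamp and clamp loader only Rfc2 stayed higher, while Rrm1, Rrm2, Tyms and Tk1 all did. Gins2 and Pola1 also had no call without the filter on low values, in the fit of the compared groups only, or with the replicate number as a block. Recomputing TPM with ribosomal protein and mitochondrial genes left out gave 37 genes higher, and leaving out DMSO TH17 replicate 3 also left 37. The ribosomal share fell alongside these rises. Some markers of other cell types did not pass the filter and were not tested. Of 6 CD8 T and NK genes 4 were tested and 3 rose (summed level of the 6, 49.2 to 51.9 TPM in DMSO TH17 and 89.2 to 117 TPM in Srci1 TH17), mostly Klrd1, with Ncr1 at 0. Cd74, of 2 myeloid and dendritic markers tested out of 6, and Hba-a1, the only 1 of 4 red blood cell markers tested, rose as well. Their part in the rise of the replication genes was not tested.

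In the STAT3 knockout, 34 of the 45 genes rose against wild-type DMSO TH17 and 2 fell, where 30.9% of all tested genes rose and 18.9% fell. The median log2 change was 0.64, against 0.13 over all genes. The libraries of the groups did not overlap for 37 of the genes, against 51.5% of all tested genes. The comparison shares its DMSO libraries with the Srci1 comparison in TH17 and with the comparison of Treg with TH17, so the 3 are not independent. By role, the genes that rose were 10 of 12 helicase genes, 7 of 8 polymerase and primase genes, 4 of 6 clamp and clamp loader genes, all 3 Rpa genes, Fen1 and Lig1, and all 4 deoxynucleotide synthesis genes. Among the licensing genes 2 of 4 rose and 1 fell, and 2 of 5 G1/S drivers rose, beside the 30.9% and 18.9% of all tested genes. The chromatin gene Uhrf1 had no call. Prim2 rose 2.98-fold (log2 change 1.53 ± 0.08, adjusted p = 2.20e-09), Tyms 2.46-fold (log2 change 1.28 ± 0.08, adjusted p = 1.31e-08) and Rpa2 2.14-fold (log2 change 1.08 ± 0.06, adjusted p = 8.21e-09). Rpa1 and Rfc2 also at least doubled, by 2.05-fold and 2.04-fold. Pole rose 1.97-fold, Lig1 1.88-fold, Pola1 1.85-fold, Rrm1 1.77-fold, Gins2 1.74-fold, Prim1 1.73-fold, Fen1 1.69-fold and Mcm5 1.67-fold. The rises of the next 8 genes were smaller. Like all 34 genes that rose here, these also rose with Srci1 in TH17. Rrm2 rose 1.56-fold, Cdc45 1.58-fold, E2f2 1.54-fold, Tk1 1.40-fold, Pcna 1.36-fold, Mcm10 1.32-fold, Cdc6 1.20-fold and Ccne1 1.16-fold. The calls of Cdc6 (0.12, adjusted p = 0.160) and Ccne1 (0.08, adjusted p = 0.535) were lost under median-of-ratios scaling, under quantile normalization, in the fit of the compared groups only and, for each, on leaving out any 1 of 4 of the 6 libraries. The other licensing gene that rose, Orc6, lost its call under median-of-ratios scaling (0.19, adjusted p = 0.0861), so that no licensing gene rose there and Orc1 fell. Orc6 also had no call in the fit of the compared groups only, or without DMSO TH17 replicate 2 or knockout replicate 2.

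Orc1 fell 1.73-fold in the knockout (log2 change -0.71 ± 0.13, adjusted p = 0.000439) and Rfc3 fell 1.25-fold (log2 change -0.32 ± 0.08, adjusted p = 0.00518). No call was made for Mcm2 (log2 change -0.05, 95% interval -0.20 to 0.11) or Mcm3 (-0.00, -0.17 to 0.17), although the other 4 members of the ring rose. Cdt1 (0.13, 0.01 to 0.24), Cdc25a (0.13, -0.06 to 0.32), E2f1 (0.08, -0.13 to 0.29), Uhrf1 (0.30, 0.04 to 0.57), Ccne2 (0.42, -0.07 to 0.91), Rfc1 (0.35, -0.01 to 0.70) and Pold2 (0.29, -0.22 to 0.81) had no call either. Under median-of-ratios scaling 31 genes rose and 3 fell, with 25.7% of all tested genes higher and 25.4% lower. The gene added among those that fell was Mcm2 (log2 change -0.18, adjusted p = 0.0157). Without DMSO TH17 replicate 3, 33 rose and 3 fell. The ribosomal shares overlapped in this comparison, at 26.5 to 30.4% in DMSO TH17 and 27.4 to 29.7% in the knockout. Of 6 B cell markers 4 were tested, and 3 rose and 1 fell (summed level of the 6, 2.77 to 3.78 TPM in DMSO TH17 and 13.3 to 13.9 TPM in the knockout). Of 6 myeloid and dendritic markers 2 were tested and both rose (summed level of the 6, 39.8 to 47.4 TPM and 156 to 181 TPM). Nearly all of that was Cd74, with Lyz2 at 0 in 2 of the 3 knockout libraries. Of 6 CD8 T and NK markers 4 were tested, and 2 rose and 1, Klrd1, fell. Their part in the result was not tested.

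The replication genes were also higher with Srci1 in Treg cultures. There 32 of the 45 rose and 0 fell, where 17.1% of all tested genes rose and 10% fell, and the median log2 change was 0.36 against 0.11 over all genes. The libraries did not overlap for 39 genes, against 50.3% of all tested genes. Calls covered all 4 deoxynucleotide synthesis genes, all 3 Rpa genes, Uhrf1, 3 of 4 licensing genes, 4 of 5 G1/S drivers, 8 of 12 helicase genes, 4 of 6 clamp and clamp loader genes and 4 of 8 polymerase and primase genes. Ccne2 rose 1.87-fold (log2 change 0.87 ± 0.23, adjusted p = 0.0117), Rrm2 1.71-fold (log2 change 0.77 ± 0.06, adjusted p = 3.86e-07) and Tyms 1.69-fold (log2 change 0.75 ± 0.08, adjusted p = 1.62e-05). Pola1 rose 1.55-fold, Rpa1 1.48-fold, Rpa2 1.43-fold, Cdc6 1.40-fold, Mcm10 1.40-fold, Uhrf1 1.40-fold, Rrm1 1.39-fold and Mcm5 1.37-fold. Orc1 rose 1.33-fold (log2 change 0.39 ± 0.13, adjusted p = 0.0397) but had no call under median-of-ratios scaling (0.27, adjusted p = 0.0641), under quantile normalization, without the filter on low values, with the recomputed TPM, or when any library but DMSO Treg replicate 3 was left out. Ccne1 rose 1.32-fold, E2f2 1.31-fold, Prim1 1.29-fold, Fen1 1.27-fold, Cdc45 1.26-fold, Cdc25a 1.26-fold, Tk1 1.24-fold and Pcna 1.22-fold. Of these, Ccne1, Cdc45, Tk1 and Pcna had no call under median-of-ratios scaling. The call of Ccne2, the largest rise, was lost without DMSO Treg replicate 1 (log2 change 0.77, adjusted p = 0.0503). Cdt1 differed little between the Treg groups (log2 change 0.03, 95% interval -0.08 to 0.15), and Gins1 had a negative estimate (-0.14, -0.33 to 0.04). The other genes without a call had estimates from 0.07 (E2f1) to 0.35 (Lig1). Median-of-ratios scaling left 23 genes higher and made 1, Gins1, lower (log2 change -0.26, adjusted p = 0.0425), with 10.7% of all tested genes higher and 13.8% lower. The ribosomal share was lower in Srci1 Treg, and some markers of other cells were higher there. Of 4 red blood cell markers only 1 was tested, and it rose (summed level of the 4, 1.29 to 3.4 TPM in DMSO Treg and 16.7 to 28.5 TPM in Srci1 Treg). Of 3 gamma delta T cell markers 2 were tested and 1, Tcrg-C1, rose (summed level of the 3, 7.03 to 8.72 TPM and 29 to 34.5 TPM). Of the 4 CD8 T and NK markers tested 1 rose and 1 fell, and of the 2 myeloid and dendritic ones tested 1 fell. Their part in the result was not tested.

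Between the cell types in DMSO, the replication genes were higher in Treg. Here 38 of the 45 were higher and 0 lower, where 32.3% of all tested genes were higher and 12.5% lower, and the median log2 difference was 0.75 against 0.18 over all genes. For 40 genes the libraries did not overlap, against 52.9% of all tested genes. This was the largest median of the 6 comparisons, and 8 genes had a log2 difference of at least 1. Lig1 was 2.54-fold higher (log2 change 1.37 ± 0.15, adjusted p = 4.68e-06), Pole2 2.66-fold (log2 change 1.34 ± 0.11, adjusted p = 4.36e-07) and E2f2 2.35-fold (log2 change 1.20 ± 0.11, adjusted p = 6.14e-07). Pole was 2.31-fold higher, Tyms 2.12-fold, Gins1 2.08-fold, Pola1 2.07-fold, Tk1 2.06-fold and Ccne1 2.05-fold. Genes from the fork, from deoxynucleotide synthesis and from G1/S control were thus all among the largest differences. Rpa1 differed 1.96-fold, Rrm1 and Cdc45 1.86-fold and 1.86-fold, Prim1 1.85-fold, Rrm2 1.82-fold, Fen1 1.81-fold, Rpa2 1.75-fold and Mcm5 1.70-fold. Ccne2 differed 1.68-fold, Uhrf1 1.63-fold, Mcm10 1.58-fold, Cdt1 1.53-fold, Pcna 1.48-fold, Cdc6 1.44-fold, Mcm2 1.35-fold and Cdc25a 1.3-fold. The genes without a call were Orc1, Mcm3, Gins2, Rfc1, Rfc3, Pold2 and E2f1, with estimates from -0.13 (Rfc3) to 0.59 (Pold2). Under median-of-ratios scaling 37 were higher and Orc1 (-0.29, adjusted p = 0.0344) and Rfc3 (-0.35, adjusted p = 0.00303) were lower, with 21.1% of all tested genes higher and 21.8% lower. Without DMSO TH17 replicate 3, 37 were higher and 0 lower. The ribosomal share was lower in DMSO Treg (24.9 to 25.2% against 26.5 to 30.4%), the summed myeloid and dendritic markers were higher (121 to 124 TPM against 39.8 to 47.4 TPM, mostly Cd74) and the CD8 T and NK markers lower (22.3 to 24.1 TPM against 49.2 to 51.9 TPM, mostly Klrd1). Of 4 red blood cell markers only 1 was tested, and it was higher (summed level of the 4, 1.29 to 3.4 TPM against 0 to 0.97 TPM). Of 6 B cell markers 4 were tested and 1, Ebf1, was lower (summed level of the 6, 2 to 3.72 TPM against 2.77 to 3.78 TPM). Their part in the result was not tested.

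**Figure D2:**
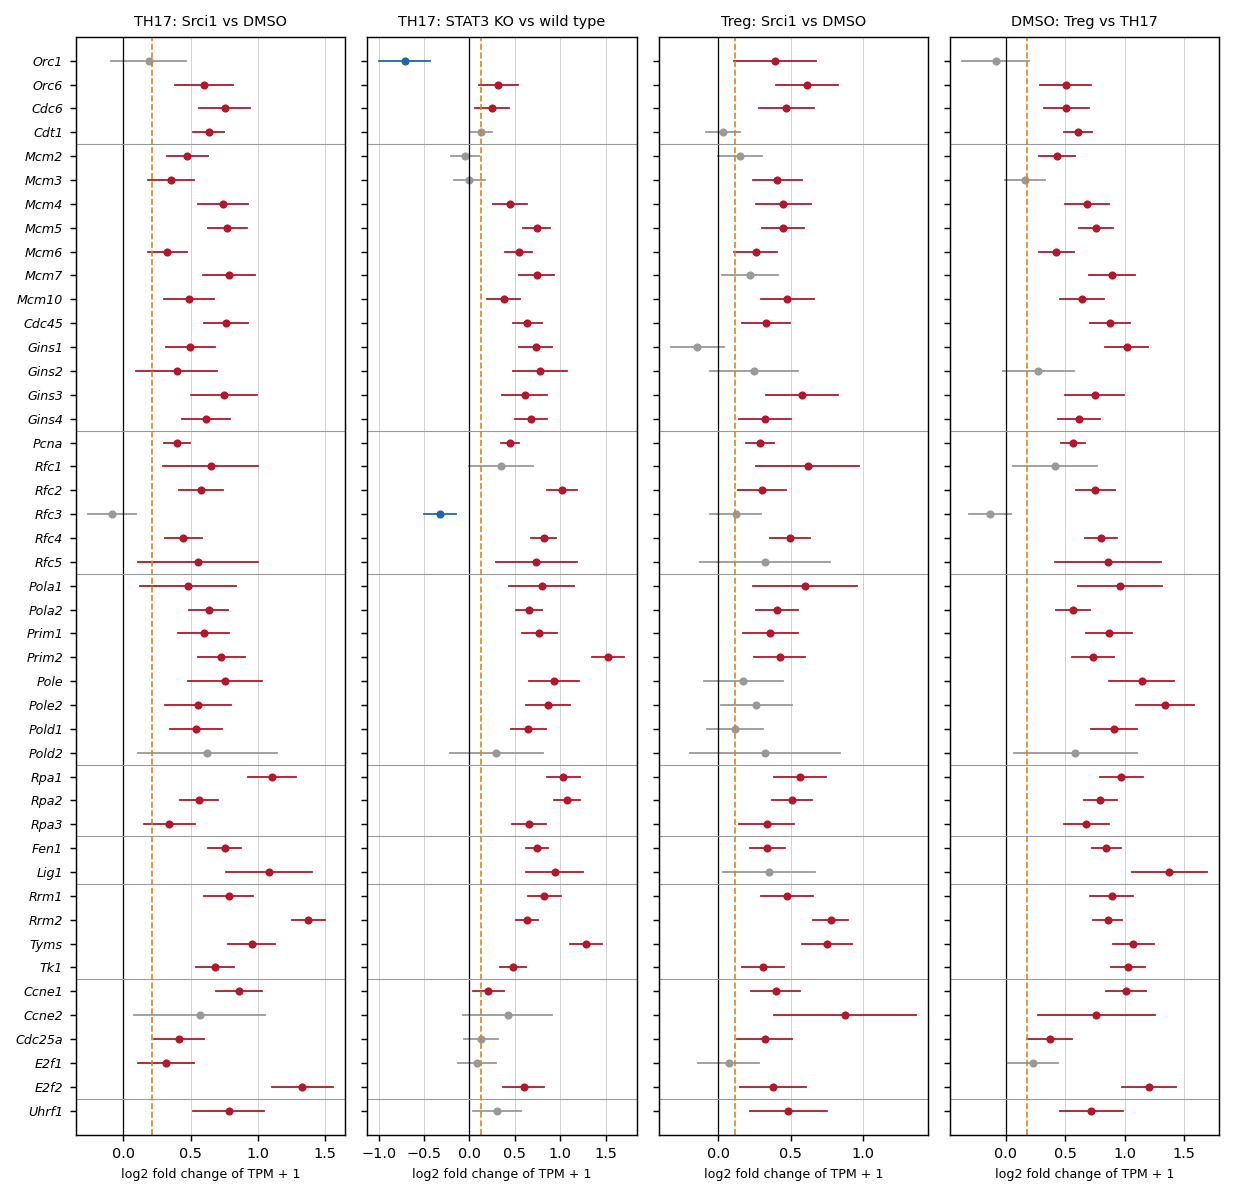
log2 fold change of TPM + 1 for each of the 45 genes in 4 comparisons, with its 95% interval; red marks genes called higher, blue genes called lower and grey genes without a call, and the dashed orange line is the median of all 12800 tested genes. Most points lie to the right of that line in every panel, with Orc1 and Rfc3 called lower in the knockout panel.

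The Srci1 response was larger in TH17 than in Treg for part of the set. In the test of that difference, 15 of the 45 genes had a larger log2 change in TH17 and 0 a larger one in Treg, where 11.3% and 2.95% of all tested genes did. The median difference was 0.28, against 0.13 over all genes. E2f2 differed most (difference 0.95 ± 0.15, adjusted p = 0.000761): it went from 21.1 to 54.2 TPM in TH17 and from 49.6 to 64.8 TPM in Treg. Lig1 came next (0.73 ± 0.21, adjusted p = 0.0324), then Gins1 (0.64 ± 0.12, adjusted p = 0.00281). Cdt1 went from 50.01 to 78.1 TPM in TH17 while it stayed at 76.6 and 78.3 TPM in Treg (difference 0.60 ± 0.08, adjusted p = 0.000167). For Rrm2 the difference was 0.60 ± 0.08 (adjusted p = 0.000219), although Rrm2 rose in both cell types. Pole, Mcm7, Rpa1, Ccne1, Cdc45, Pold1, Fen1, Tk1, Mcm5 and Mcm2 made up the 15, with differences from 0.32 (Mcm2) to 0.58 (Pole). The starting levels differed: the DMSO Treg means of these 15 genes were all above their DMSO TH17 means. This is no trait of the 15, because 43 of the 45 genes had a higher estimate in DMSO Treg than in DMSO TH17. The same DMSO libraries also enter the tested difference, which favours such a pattern among the genes called. By role the 15 were 5 of 12 helicase genes, 2 of 4 deoxynucleotide synthesis genes, 2 of 5 G1/S drivers, 2 of 8 polymerase and primase genes, Fen1 and Lig1, Cdt1 and Rpa1. Scaling the median gene to no change left 8 of the 15, with 8.88% of all tested genes above and 5.55% below, and leaving out DMSO Treg replicate 2 left 9. Cdt1, Mcm7, Gins1, Rpa1, Fen1, Rrm2 and E2f2 had a call under every setting tried.

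Srci1-treated and STAT3-deficient TH17 cultures, both above DMSO TH17 in summed level, were also compared with each other. Of the 45 genes, 14 were higher with Srci1 and 10 were higher in the knockout, where 30.6% and 18.4% of all tested genes were, and libraries did not overlap for 24 genes, against 56.1% of all tested genes. These shares are near those of all tested genes, so the counts are no result about the set, and the values are given gene by gene. The median difference was 0.07 against 0.11 over all genes, and the direction of the majority depended on scaling. Under median-of-ratios scaling the split was 9 and 16, under quantile normalization 8 and 20, and 9 and 15 when TPM was recomputed with ribosomal protein and mitochondrial genes left out. The genes higher with Srci1 included all 4 licensing genes, Orc1 (1.98-fold, log2 change 0.90 ± 0.13, adjusted p = 6.36e-05), Orc6, Cdc6 and Cdt1, and 3 of the 5 G1/S drivers, E2f2 (1.67-fold, log2 change 0.73 ± 0.11, adjusted p = 5.66e-05), Ccne1 (1.59-fold, log2 change 0.65 ± 0.08, adjusted p = 1.01e-05) and Cdc25a. Rrm2 (1.67-fold, log2 change 0.74 ± 0.06, adjusted p = 1.00e-07), Uhrf1 (1.40-fold, log2 change 0.48 ± 0.12, adjusted p = 0.00508) and Mcm2 (1.44-fold, log2 change 0.52 ± 0.07, adjusted p = 3.34e-05) were higher with Srci1 as well, as were Mcm3, Mcm4, Rfc3 and Tk1. Cdc6 and Cdt1 each differed 1.43-fold (adjusted p = 0.000261 and 3.26e-06), Cdc25a 1.22-fold and Tk1 1.15-fold.

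The genes higher in the knockout came from the helicase (3 of 12), the clamp loader (2 of 6 with the clamp), the polymerases and primase (2 of 8) and Rpa (2 of 3), with Tyms from deoxynucleotide synthesis. Prim2 was 1.76-fold lower with Srci1 than in the knockout (log2 change -0.80 ± 0.08, adjusted p = 2.03e-06), Rpa2 1.44-fold (log2 change -0.51 ± 0.06, adjusted p = 1.70e-05) and Rfc2 1.37-fold (log2 change -0.45 ± 0.08, adjusted p = 0.000251). Rfc4 (1.3-fold), Gins2 (1.31-fold), Tyms (1.26-fold), Pole2 (1.26-fold), Rpa3 (1.25-fold), Gins1 (1.18-fold) and Mcm6 (1.16-fold) completed the 10. The call for Gins2 rested on a pair of genes that share exons on opposite strands. No polymerase or primase gene was higher with Srci1, and 2 of the 8 were lower, 7 of 8 under median-of-ratios scaling. Estimates near 0 without a call were those of Pcna (-0.04, 95% interval -0.14 to 0.05), Fen1 (0.01, -0.12 to 0.13), Pola2 (-0.03, -0.17 to 0.12), Mcm5 (0.03, -0.11 to 0.18) and Rrm1 (-0.04, -0.22 to 0.14). All 5 were called lower with Srci1 after quantile normalization, and Pcna (-0.18, adjusted p = 0.0266) and Pola2 (-0.16, adjusted p = 0.0235) also under median-of-ratios scaling. Orc1, Cdc6, Cdt1, Mcm2, Rrm2, Ccne1, E2f2 and Uhrf1 on the higher side, and Rfc2, Rfc4, Prim2, Rpa2, Rpa3 and Tyms on the lower side, were called under every setting tried. The count on the higher side was 9 without knockout replicate 3, and the count on the lower side was 6 without knockout replicate 2. The knockout libraries also had the higher B cell and Cd74 levels given above, and Srci1 TH17 the lower ribosomal share; their part in these differences was not tested.

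**Figure D3:**
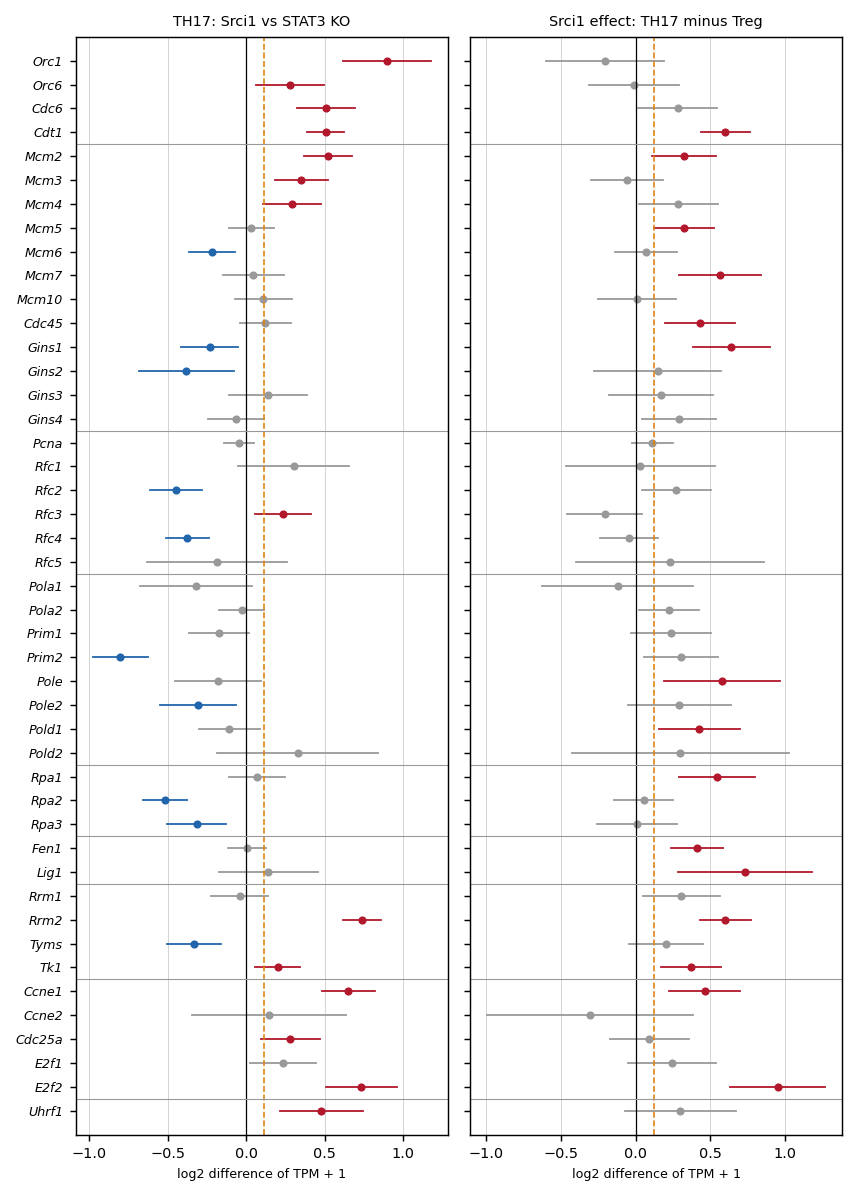
Left, log2 difference between Srci1 TH17 and knockout TH17 for each of the 45 genes; right, the Srci1 change in TH17 minus that in Treg. Points are estimates with 95% intervals, red above and blue below at an adjusted p under 0.05, and the dashed line is the median of all tested genes: the licensing genes lie to the right in the left panel, while Prim2 and Rpa2 lie farthest to the left.

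Ratios of partner genes within a library do not change when all its values are multiplied by the same factor, though quantile normalization can change them. The 4 pairs were chosen after their levels had been seen, so the ratios are a description and were not tested. Rrm2 to Rrm1, the subunits of ribonucleotide reductase, stood at 1.08 ± 0.159 (SD, n = 3) in DMSO TH17, 0.944 ± 0.0459 in knockout TH17, 1.05 ± 0.0105 in DMSO Treg, 1.29 ± 0.0965 in Srci1 Treg and 1.63 ± 0.039 in Srci1 TH17. The Srci1 TH17 libraries (1.58 to 1.66) were above all others, and the ratio was also higher with Srci1 than with DMSO in Treg, without overlap. Prim2 to Prim1 was 0.913 ± 0.118 in the knockout and between 0.481 and 0.581 on average in the other 4 groups. The lowest knockout library, at 0.794, was above the highest of any other group, at 0.607. Orc1 to Orc6 was highest in DMSO TH17 (0.361 ± 0.0707) and lowest in the knockout (0.165 ± 0.00358), with the knockout libraries below all others. E2f2 to E2f1 was 1.32 ± 0.129 in DMSO TH17, 1.91 ± 0.199 in the knockout, 2.65 ± 0.451 in DMSO Treg, 2.7 ± 0.121 in Srci1 TH17 and 3.26 ± 0.284 in Srci1 Treg. DMSO TH17 was the only group with all libraries below 1.41.

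**Figure D4:**
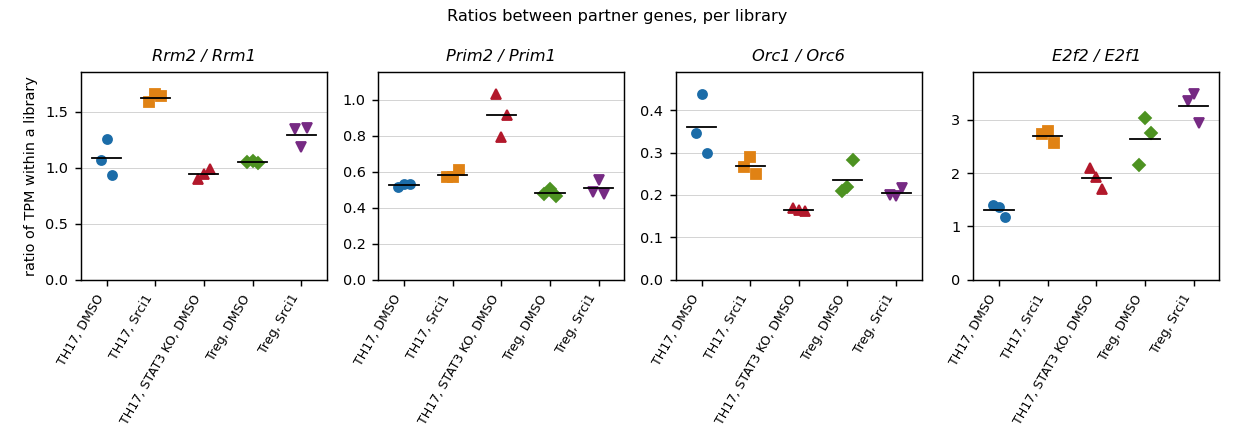
Ratio of TPM between partner genes (vertical axes, from 0) in each of the 3 libraries of the 5 groups, with the group mean as a black line. Rrm2 to Rrm1 is highest in Srci1 TH17 (mean 1.63), Prim2 to Prim1 in knockout TH17 (0.913), and Orc1 to Orc6 is lowest in knockout TH17 (0.165).

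Other genes of the same pathways were counted for context. Of 28 further replication genes (kinases, checkpoint, remaining origin and polymerase subunits and chromatin assembly), 21 rose and 1 fell with Srci1 in TH17, 16 and 2 in the knockout, 15 and 1 with Srci1 in Treg, and 21 and 1 were higher and lower in Treg than in TH17. Of all tested genes, 33.8%, 30.9%, 17.1% and 32.3% were higher in these comparisons and 7.08%, 18.9%, 10% and 12.5% lower. Under median-of-ratios scaling the counts were 18 and 1, 16 and 3, 13 and 1, and 19 and 1. The histone chaperone gene Asf1b rose in each (1.20, 0.84, 0.75 and 0.87 on the log2 scale), as did Chtf18, of the alternative clamp loader (1.04, 1.04, 0.49 and 1.00). Pold4, the small subunit of the lagging-strand polymerase, was the gene that fell in each (-0.54, -0.23, -0.54 and -0.51). Mitosis genes moved with the replication genes: of 20, 18 rose with Srci1 in TH17 (median log2 change 0.96), 19 in the knockout (0.64), 17 with Srci1 in Treg (0.56) and 19 were higher in Treg (0.97), with 0 lower in each. Under median-of-ratios scaling 18, 18, 15 and 18 were higher and 0 lower. Ccnb2, a mitotic cyclin gene, rose 2.11-fold with Srci1 in TH17 and 2.21-fold in the knockout.

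Other nucleotide synthesis was counted over 27 genes. With Srci1 in TH17, 11 (40.7%) rose and 1 fell (3 and 6 under median-of-ratios scaling), against 33.8% and 7.08% of all tested genes. Their median log2 change was 0.20 against 0.21 over all genes. With Srci1 in Treg 6 (22.2%) rose and 3 fell, against 17.1% and 10% of all tested genes. In Treg against TH17, 15 (55.6%) were higher and 2 lower, against 32.3% and 12.5%. In the knockout 8 (29.6%) rose and 10 (37%) fell (5 and 13 under median-of-ratios scaling), against 30.9% and 18.9%. The shares that rose with Srci1 and in the knockout are near the background. Those that rose in the knockout included Dtymk, the thymidylate kinase gene (0.60), Samhd1, whose product degrades deoxynucleotides (0.95), Dck, the deoxycytidine kinase gene (0.60), Dut, Adsl, Adss and Impdh2. Those that fell included Prps1 (from 185 to 87.1 TPM, log2 change -1.07 ± 0.11, adjusted p = 3.21e-06), which makes the ribose precursor, Impdh1 (from 64.3 to 32.4 TPM, log2 change -0.97 ± 0.08, adjusted p = 1.41e-07), of guanine nucleotide synthesis, and Shmt2 (from 177 to 118 TPM, log2 change -0.58 ± 0.05, adjusted p = 3.24e-07), which feeds folate-bound carbon. With Srci1, Shmt2 rose in TH17 (0.32) and fell in Treg (-0.23), as did Mthfd2 (0.39 and -0.26), and the difference passed the test for each (0.000170 and 0.000329, adjusted p). The median of all tested genes was at 0.21 in TH17 and 0.11 in Treg, so the rises in TH17 were small beside it.

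Of 22 genes of E2F, RB and G1 control, 21 were tested. With Srci1 in TH17, 12 rose and 0 fell (7 and 5 under median-of-ratios scaling), and in the knockout 7 rose and 7 fell (7 and 8). With Srci1 in Treg 6 rose and 3 fell (3 and 4), and 11 were higher and 3 lower in Treg than in TH17 (8 and 5). Against the shares of all tested genes given above, the number that rose in the knockout is near the background. The repressors E2f7 and E2f8, which are themselves E2F targets, rose with Srci1 in TH17 (1.46 and 1.42), in the knockout (0.85 and 0.93) and with Srci1 in Treg (0.66 and 0.69). Cdkn1a, the gene of the Cdk inhibitor p21, fell from 143 ± 15.1 TPM in DMSO TH17 to 20.4 ± 1.41 TPM in the knockout (log2 change -2.75 ± 0.08, adjusted p = 4.95e-12) and from 123 ± 4.08 to 51.8 ± 3.60 TPM with Srci1 in Treg (log2 change -1.24 ± 0.08, adjusted p = 1.48e-07). With Srci1 in TH17 it was at 146 ± 2.37 TPM, and the test of the difference between the Srci1 changes gave log2 change 1.27 ± 0.11, adjusted p = 9.99e-06. Myc fell in the knockout (-0.68) and with Srci1 in Treg (-0.26). Cdkn2c, which codes for an inhibitor of Cdk4 and Cdk6 and is known as an E2F target, rose in the knockout (1.38).

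The 45 genes lie on 15 chromosomes, with 7 of them on chromosome 5. Exonic bases are shared with another gene for 15 of them, and for 13 with a gene of at least 1 TPM in some library. After Gins2, the largest shares with a gene of that level were 17.4% for Ccne2 with Ints8 and 15.1% for Rfc2 with Lat2, on opposite strands. Pole2 shares 8.5% with Gm49384 on the same strand, which reached 11.7 TPM, so its level is less certain. Rfc4 shares 12.7% with Eif4a2 on the opposite strand, which reached 361 TPM, well above the level of Rfc4 in any library. Fen1 shares 5.4% with Tmem258 on the opposite strand, which reached 248 TPM, also above the level of Fen1 in any library. A further 78.8% of Fen1 is shared with Gm10143 on the opposite strand, which reached only 0.95 TPM. With the strand setting unknown, the values of Rfc4 and Fen1 are uncertain too. A processed copy of the clamp gene, Pcna-ps2, reached 10.9 TPM, and how reads were split between the copy and Pcna is not known.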

How the data were processed

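Polyadenylated RNA of 15 libraries, 3 in each of 5 groups, was measured by RNA sequencing. The deposited TPM values were made with STAR 2.7.9a, RSEM 1.3.3 and the genome GRCm38, per the submitters' processing notes; the annotation release and strand setting are not stated there or in the labels. TPM holds no depth, so no count model was used. Values were analysed as log2(TPM + 1) for 12800 genes, those that reached 1 TPM in 3 or more libraries. limma 3.58.1 (R 4.3.3) was fitted to all 5 group means with a trended prior, which left 10 residual degrees of freedom, and 6 contrasts were tested with Benjamini-Hochberg adjustment over all genes at 0.05. A value after ± is an SE on the log2 scale and an SD on the TPM scale. A fold is the ratio of mean TPM, and log2 changes of low genes are understated by the pseudocount of 1. The fit was tested on simulated data. Figures and ratios were made with Python 3.11.15, pandas 2.3.3 and matplotlib 3.10.9. The members and gene lists were chosen with earlier results of these data known. Values in every library are given for a set list of 26 of the 45 genes and for the 3 largest called changes in each direction without overlap. Of each other list, up to 4 genes per comparison with the smallest adjusted p among those called are named; further genes named from those lists were chosen after their values were seen. Alternatives were other scalings, filters, a pseudocount of 0.1, fits of the compared groups only, a replicate block and leaving out each library.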

Additional observations from a re-analysis of the deposited data

Results flagged for a closer look

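The Srci1 change differed between TH17 and Treg, by the test of the difference itself in limma over all genes (n = 3 libraries a group), for 15 of the 45 genes, each with the larger log2 change in TH17. Among the G1/S drivers the difference was 0.952 for E2f2 and 0.463 for Ccne1. Of the genes of the active helicase it was 0.640 for Gins1, 0.566 for Mcm7, 0.432 for Cdc45, 0.325 for Mcm5 and 0.324 for Mcm2. The licensing gene Cdt1 differed by 0.601. At the fork the difference was 0.732 for Lig1, 0.579 for Pole, 0.543 for Rpa1, 0.428 for Pold1 and 0.412 for Fen1. In deoxynucleotide synthesis it was 0.6 for Rrm2 and 0.371 for Tk1. The DMSO levels of these genes were higher in Treg to begin with, as were the estimates of 43 of the 45 genes. The same DMSO libraries enter the tested difference, and whether the starting level bears on the size of the change was not tested.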

How the results depend on the processing

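Calls under every setting tried covered 27 of 41 genes for Srci1 in TH17, 33 of 36 in the knockout, 18 of 32 for Srci1 in Treg, 36 of 38 for Treg against TH17, 7 of 15 for the difference between the Srci1 changes and 14 of 24 for Srci1 against the knockout. The number lower with Srci1 in TH17 was 1 under median-of-ratios scaling and 1 under quantile normalization, with Srci1 in Treg 1 and 1, and in Treg against TH17 2 and 2, and 1 when TPM was recomputed with ribosomal protein and mitochondrial genes left out, an alternative added after the data had been seen. The larger Srci1 change in TH17 held for 8 genes under median-of-ratios scaling, 9 under quantile normalization and 10 without a filter on low values. For Srci1 against the knockout the split was 9 higher and 16 lower under median-of-ratios scaling, 8 and 20 under quantile normalization and 9 and 15 with the recomputed TPM; under quantile normalization Mcm5 (-0.14, adjusted p = 0.0303) and Fen1 (-0.19, adjusted p = 0.0044) were lower, against small positive values without a call. The cause was not tested. Leaving out 1 library at a time gave 37 to 41 higher for Srci1 in TH17, 31 to 35 higher and 2 to 3 lower in the knockout, 27 to 33 higher for Srci1 in Treg, 37 to 39 for Treg against TH17, 9 to 15 for the difference and 9 to 14 higher and 6 to 9 lower for Srci1 against the knockout, and 0 lower in the others.

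With the replicate number as a block, 39 genes rose and 0 fell with Srci1 in TH17, 34 and 2 in the knockout, 32 and 0 with Srci1 in Treg, 38 and 0 in Treg against TH17, 15 and 0 for the difference, and 14 and 9 for Srci1 against the knockout. Same-numbered libraries of different groups did not deviate together (correlation of deviations -0.171 to 0.128 over 30 pairs, and -0.301 to 0.254 over 60 pairs of different number). The labels do not say whether a number stands for a shared mouse or batch, and with 3 libraries a group these correlations cannot decide it. Depth is unknown, so counting error could not be given.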
